A study of Mus musculus with 4 samples.

Results

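Trp63, Foxn1, Hoxc13, Dlx3, Grhl3, Gata3, Klf4, Ovol1 and Tfap2a encode transcription factors that direct epidermal and nail differentiation. They were taken by gene symbol from the deposited RNA-seq table and are 9 of its 45706 genes. The samples were digit tips of mice at 14 days of regeneration, cut at the distal interphalangeal joint, and nail, epidermis, dermis, bone and vessels all entered each library. There were 4 groups of 1 library each: Sp6 conditional knockout (cKO), Sp8 cKO, Sp6+Sp8 cKO and wildtype. Knockout was induced by tamoxifen, 75 mg/kg on each of 5 days, and 5 days of rest came before amputation. By label, the 3 cKO libraries belong to batch 1 and wildtype to batch 3. Against wildtype, batch and genotype therefore cannot be told apart, while cKO libraries can be compared with each other inside batch 1. The sources used here do not give the Cre driver, the strain, the age, the number of animals in a library or whether wildtype mice had tamoxifen. The protocols describe amputations of both the distal and the middle phalanx without saying which of them these digits had.

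The epidermis renews from a basal layer whose cells stop dividing, move outwards and fill with keratins and cornified envelope proteins. Trp63, which encodes p63, is required to form and keep the stratified epithelium, and Tfap2a encodes AP-2 alpha, which acts beside it in surface ectoderm. Klf4, Grhl3 and Ovol1 act in the later steps: Klf4 and Grhl3 are needed for the skin barrier, and Ovol1 is a zinc finger repressor that limits proliferation of epidermal progenitors. Foxn1, the nude gene, and Hoxc13 are needed for normal hair and nails and act upstream of hard keratin genes, while Dlx3 and Gata3 have known roles in the hair follicle. Sp6 and Sp8 are zinc finger factors of the Sp family, whose members bind GC-rich and CACCC-type sequences and which is related to the Klf family that holds Klf4.

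The deleted genes were examined first, because they check the labels. Sp6 was measured at 29.2 CPM (counts scaled to library size) in Sp6 cKO, 95.6 in Sp8 cKO, 57.8 in Sp6+Sp8 cKO and 97.7 in wildtype. Sp8 was measured at 66.1 CPM in Sp6 cKO, 16.8 in Sp8 cKO, 13.4 in Sp6+Sp8 cKO and 63.9 in wildtype. Each deleted gene was therefore lower where the label says it was deleted, but Sp6 stood at 59.1% of wildtype in Sp6+Sp8 cKO against 29.9% in Sp6 cKO. Library totals ran between 12588511 and 21834883 counts, and each member had at least 603 counts in each library. With 1 library per group nothing was tested, no p-value is given, and each ratio compares 2 libraries rather than 2 genotypes. The 95% intervals given are exact Clopper-Pearson intervals of a ratio of counts and cover counting error only.

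The start of the gene is shown for 3 of the members because Sp and Klf factors are known to bind GC boxes near promoters. RefSeq promoter windows of the GRCm38.p6 build were found for 5 of the 9 members, and both strands of the 250 bases before the start were searched for a GC box, GGGCGG or CCGCCC, and a CACCC box, CCACCC or GGGTGG. The windows of Foxn1 (chr11:78386609-78386858), Grhl3 (chr4:135573633-135573882) and Klf4 (chr4:55532476-55532725) all lie on the minus strand and are printed 5′ to 3′ along the gene, with the GC boxes in capitals.
Foxn1: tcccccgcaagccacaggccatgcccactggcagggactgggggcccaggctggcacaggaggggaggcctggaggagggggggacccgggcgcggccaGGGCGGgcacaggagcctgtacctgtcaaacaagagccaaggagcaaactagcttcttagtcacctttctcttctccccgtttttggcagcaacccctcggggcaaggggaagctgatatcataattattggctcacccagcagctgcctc
Grhl3: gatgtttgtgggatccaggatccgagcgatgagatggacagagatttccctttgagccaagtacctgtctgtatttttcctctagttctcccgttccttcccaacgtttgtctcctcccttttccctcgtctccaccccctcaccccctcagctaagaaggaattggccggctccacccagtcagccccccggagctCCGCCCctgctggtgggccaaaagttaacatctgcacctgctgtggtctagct
Klf4: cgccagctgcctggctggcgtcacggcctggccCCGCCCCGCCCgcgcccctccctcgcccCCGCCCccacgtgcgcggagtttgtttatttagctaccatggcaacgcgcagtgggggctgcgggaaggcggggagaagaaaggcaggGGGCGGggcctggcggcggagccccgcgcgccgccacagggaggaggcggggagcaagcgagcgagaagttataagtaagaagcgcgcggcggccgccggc
Foxn1 had 1 GC box, with its first base 151 bases before the start, and Grhl3 had 1, at 53 bases. Klf4 had 4, at 217, 212, 189 and 101 bases, and those at 217 and 212 overlap. Grhl3 also held CACCC boxes at 118 and 77 bases, which are not in capitals and overlap no GC box. All 5 members with a window, Gata3 and Tfap2a included, held a GC box and 2 held a CACCC box, against 32.7% and 28.1% of all 32851 promoter windows in the table. The members are counted by gene and the shares by window, and Tfap2a has more than 1 window. The windows of Gata3 and Tfap2a lie inside the annotated gene. The printed windows were 63.2% G or C in Foxn1, 56% in Grhl3 and 74% in Klf4, against a median of 52.4% over all windows, so base composition differs along with the motif. A match describes letters and is not evidence of binding.

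The 9 transcripts were present in every library and differed at most 1.66-fold between libraries, with the largest differences in the nail and hair regulators Hoxc13 and Foxn1. The summed level of the members was 2097 CPM in Sp6 cKO, 1996 in Sp8 cKO, 1903 in Sp6+Sp8 cKO and 2129 in wildtype, which is 0.193% to 0.212% of all counts. Between its highest and its lowest library, Hoxc13 differed 1.66-fold, Foxn1 1.48-fold, Ovol1 1.27-fold and Trp63 1.10-fold, while Sp6 differed 3.34-fold and Sp8 4.94-fold. Of the 9 members, 1 passed a rule of a 1.5-fold difference with an interval that excludes 1. That was Hoxc13, lower in Sp6+Sp8 cKO than in wildtype, a comparison in which 13.8% of all genes passed the rule and 7.05% passed it downwards. The count was 0 of 9 for Sp6 cKO against wildtype, with 9.09% of all genes past the rule, and 0 of 9 for Sp8 cKO against wildtype, with 8.16%. Each member exceeded 30 CPM in each library, and genes with at least 30 CPM in the higher library passed less often. Of these, 6.42% passed in Sp6+Sp8 cKO against wildtype (3.87% downwards), 3.65% in Sp6 cKO and 2.8% in Sp8 cKO. At 2-fold no member passed in any of the 6 comparisons, in which 4.4%, 3.82% and 5.79% of all genes did for Sp6 cKO, Sp8 cKO and then Sp6+Sp8 cKO against wildtype. Among the cKO libraries the 2-fold share was 3.97% for Sp6+Sp8 cKO against Sp6 cKO, 4.68% for Sp6+Sp8 cKO against Sp8 cKO and 3.1% for Sp6 cKO against Sp8 cKO. For genes with at least 30 CPM in the higher library, the 2-fold shares of the 6 comparisons ran from 0.759% to 2.18%. These are bulk tissue samples, so fewer cells of a type and less RNA per cell cannot be told apart.

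**Figure D1:**
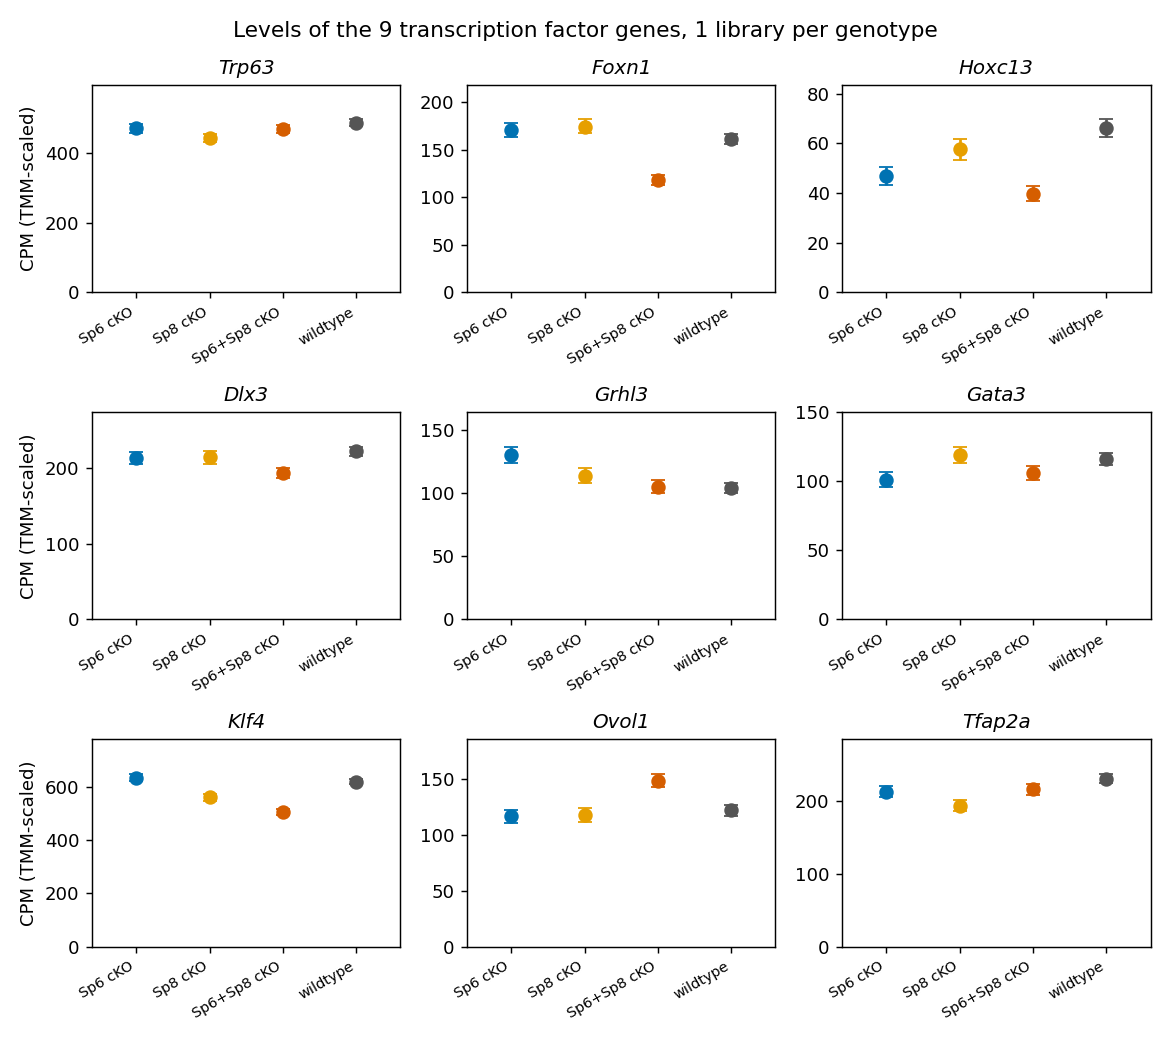
Level of each member in the 4 libraries, in CPM on axes that start at 0, each point 1 library and its bar the 95% counting interval. Hoxc13 lies between 39.7 and 66.1 CPM and Foxn1 between 118 and 174 CPM, with Sp6+Sp8 cKO lowest for both, while Trp63 lies between 445 and 488 CPM.

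Per kilobase of merged exon, which allows genes to be compared, Klf4 was the most abundant member and Hoxc13 the least in each of the 4 libraries. In wildtype, Klf4 reached 203 CPM per kb, followed by Dlx3 at 84.8, Trp63 at 58.2, Foxn1 at 50.3, Tfap2a at 47.0, Grhl3 at 37.3, Ovol1 at 35.0, Gata3 at 29.2 and Hoxc13 at 26.9. Dlx3 was the next after Klf4, and Gata3 was just above Hoxc13, in all 4 libraries. Foxn1 held rank 4 in Sp6 cKO, 3 in Sp8 cKO, 7 in Sp6+Sp8 cKO and 4 in wildtype. In CPM per kb, Foxn1 was at 53.2 in Sp6 cKO, 54.3 in Sp8 cKO, 36.7 in Sp6+Sp8 cKO and 50.3 in wildtype.

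Foxn1 (ENSMUSG00000002057; GRCm38 chromosome 11, 78357577 to 78386558, minus strand) drives keratinocytes of the hair and nail into terminal differentiation. Its counts were 2204 in Sp6 cKO, 2198 in Sp8 cKO, 1816 in Sp6+Sp8 cKO and 3517 in wildtype, which is 171, 174, 118 and 162 CPM in that order. Foxn1 was thus low in the Sp6+Sp8 cKO library only, and both single cKO libraries were slightly above wildtype. In Sp6+Sp8 cKO, Foxn1 was 1.37-fold lower than in wildtype (95% interval 1.29 to 1.45). Within batch 1, it was 1.45-fold lower in Sp6+Sp8 cKO than with Sp6 alone deleted (1.36 to 1.54) and 1.48-fold lower than in Sp8 cKO (1.39 to 1.57). All 3 ratios fall short of the 1.5-fold rule, and with libraries scaled to summed epithelial reference genes the log2 ratio to wildtype was -0.18, against -0.45 as first scaled. That sum is of raw counts of 14 genes, and Dsp alone gave 145600 of its 240011 counts in wildtype. Here and below, epithelial scaling therefore follows Dsp more than the other genes of the list. Between Sp6 cKO and Sp8 cKO the log2 ratio of Foxn1 was -0.03, with an interval that includes equality.

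Hoxc13 (ENSMUSG00000001655; chromosome 15, 102921103 to 102928814, plus strand) is the homeobox gene that acts on hair and nail keratin genes. Its counts were 603 in Sp6 cKO, 725 in Sp8 cKO, 611 in Sp6+Sp8 cKO and 1437 in wildtype, or 46.8, 57.6, 39.7 and 66.1 CPM in the same order. All 3 cKO libraries lay below wildtype, and neighbours in the order of levels were all separated by the counting interval of their ratio. Hoxc13 was 1.66-fold lower in Sp6+Sp8 cKO than in wildtype (1.51 to 1.83), 1.41-fold lower in Sp6 cKO (1.28 to 1.56) and 1.15-fold lower in Sp8 cKO (1.05 to 1.26). Within batch 1, Hoxc13 in Sp6+Sp8 cKO was 1.45-fold lower than in Sp8 cKO (1.30 to 1.62) and 1.18-fold lower than in Sp6 cKO (1.05 to 1.32). Sp6 itself was lowest in Sp6 cKO, whereas Hoxc13 was lowest in Sp6+Sp8 cKO. The log2 ratio of Hoxc13 in Sp6+Sp8 cKO to Sp6 cKO was -0.23 as first scaled. With libraries scaled to epithelial reference genes it was -0.06, so the size of this difference depends on the scaling. When libraries were scaled to the summed epithelial reference genes, the log2 ratio of Hoxc13 in Sp6+Sp8 cKO to wildtype was -0.46, against -0.73 as first scaled, and no longer passed the 1.5-fold rule.

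**Figure D2:**
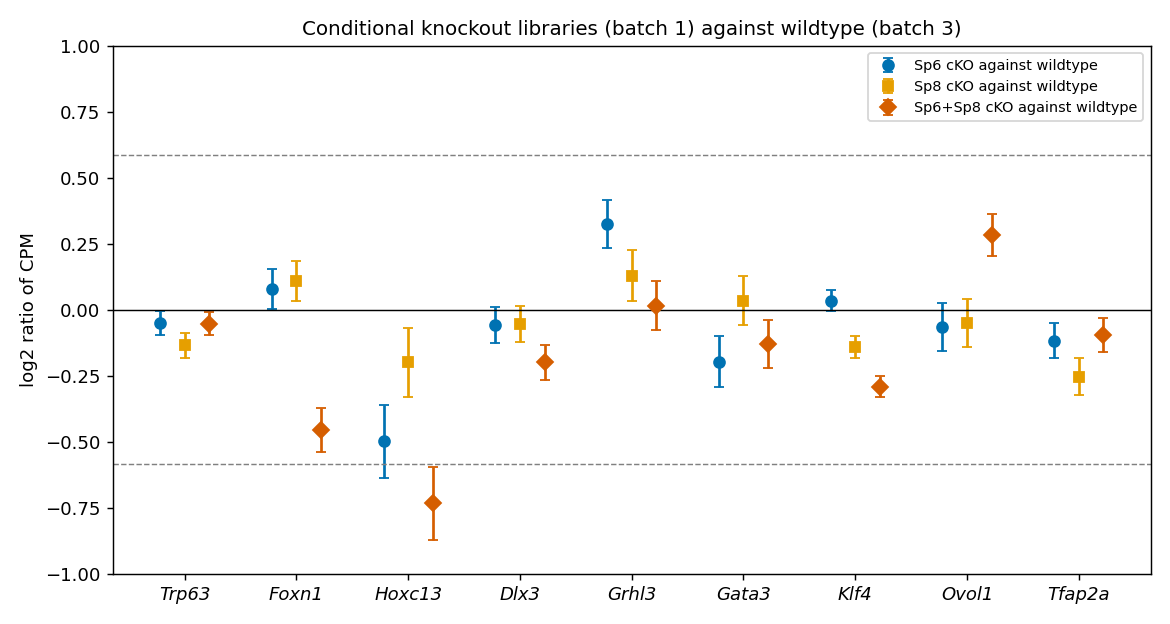
Log2 ratio to wildtype of each member for the 3 cKO libraries, with 95% counting intervals and the 1.5-fold limits marked. Hoxc13 in Sp6+Sp8 cKO, at -0.73, is the point past the limit, and Foxn1 in that library is at -0.45.

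Of the basal lineage factors, Trp63 differed least among the 9 members. Trp63 (ENSMUSG00000022510; chromosome 16, 25683763 to 25892102, plus strand) was at 472 CPM in Sp6 cKO, 445 in Sp8 cKO, 471 in Sp6+Sp8 cKO and 488 in wildtype. Its 3 log2 ratios to wildtype were -0.05, -0.13 and -0.05, and Sp6 cKO and Sp6+Sp8 cKO were not separated by counting error. Tfap2a (ENSMUSG00000021359; chromosome 13, 40715302 to 40738376, minus strand) was at 213 CPM in Sp6 cKO, 194 in Sp8 cKO, 216 in Sp6+Sp8 cKO and 231 in wildtype. For both genes wildtype was the highest library and Sp8 cKO the lowest, and Tfap2a was at most 1.19-fold lower, in Sp8 cKO (1.14 to 1.25). When libraries were scaled to epithelial reference genes, all 3 ratios of Trp63 to wildtype turned positive, and that of Tfap2a did in Sp6+Sp8 cKO, so no direction is claimed for either gene.

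Klf4 and Grhl3, the barrier factors, were both highest in Sp6 cKO. Klf4 (ENSMUSG00000003032; chromosome 4, 55527143 to 55532466, minus strand) was at 634 CPM in Sp6 cKO, 561 in Sp8 cKO, 506 in Sp6+Sp8 cKO and 619 in wildtype. Its level in Sp6+Sp8 cKO was 1.22-fold lower than in wildtype (1.19 to 1.26) and 1.25-fold lower than in Sp6 cKO (1.21 to 1.29), while Sp6 cKO and wildtype were not separated by counting error. Grhl3 (ENSMUSG00000037188; chromosome 4, 135541888 to 135573630, minus strand) was at 130 CPM in Sp6 cKO, 114 in Sp8 cKO, 105 in Sp6+Sp8 cKO and 104 in wildtype. Sp6 cKO stood above the other libraries, 1.25-fold higher than wildtype (1.18 to 1.34), and Sp6+Sp8 cKO and wildtype could not be separated. Neither gene passed the 1.5-fold rule in a comparison, and with libraries scaled to epithelial reference genes the log2 ratio of Klf4 in Sp6+Sp8 cKO to wildtype was -0.02, against -0.29 as first scaled. That of Grhl3 in the same library was 0.28, against 0.01.

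Ovol1 was the member that was highest in Sp6+Sp8 cKO. Ovol1 (ENSMUSG00000024922; chromosome 19, 5549136 to 5560646, minus strand) had 1506 counts in Sp6 cKO, 1487 in Sp8 cKO, 2288 in Sp6+Sp8 cKO and 2656 in wildtype, or 117, 118, 149 and 122 CPM in that order. The Sp6 cKO, Sp8 cKO and wildtype libraries were not separated by counting error and Sp6+Sp8 cKO lay above them. With the first scaling, Ovol1 in Sp6+Sp8 cKO was 1.22-fold higher than in wildtype (1.15 to 1.29), 1.27-fold higher than in Sp6 cKO (1.19 to 1.36) and 1.26-fold higher than in Sp8 cKO (1.18 to 1.35). With libraries scaled to epithelial reference genes its log2 ratio to wildtype was 0.55, against 0.28 as first scaled, still short of the 1.5-fold rule.

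Dlx3 and Gata3, the factors with roles in the hair follicle, completed the set. Dlx3 (ENSMUSG00000001510; chromosome 11, 95120119 to 95125296, plus strand) was at 213 CPM in Sp6 cKO, 213 in Sp8 cKO, 193 in Sp6+Sp8 cKO and 221 in wildtype. Only Sp6+Sp8 cKO was separated from the others by counting error, at a log2 ratio of -0.20 to wildtype that turned positive when libraries were scaled to epithelial reference genes, as did that of Gata3 in the same library. Dlx3 lies 1.89 Mb from Sp6 on chromosome 11 and Foxn1 18.6 Mb from it. Gata3 (ENSMUSG00000015619; chromosome 2, 9857078 to 9890034, minus strand) was at 101 CPM in Sp6 cKO, 119 in Sp8 cKO, 106 in Sp6+Sp8 cKO and 116 in wildtype. Its levels formed a lower pair, Sp6 cKO and Sp6+Sp8 cKO, and a higher pair, Sp8 cKO and wildtype, with neither pair separated within itself by counting error. Gata3 is also a T cell gene, and 9 T cell and innate lymphoid markers without Rora summed to 31.5 CPM in Sp6 cKO, 14.1 in Sp8 cKO, 28.1 in Sp6+Sp8 cKO and 9.89 in wildtype. These markers were highest where Gata3 was lowest, and their part in its values was not tested.

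**Figure D3:**
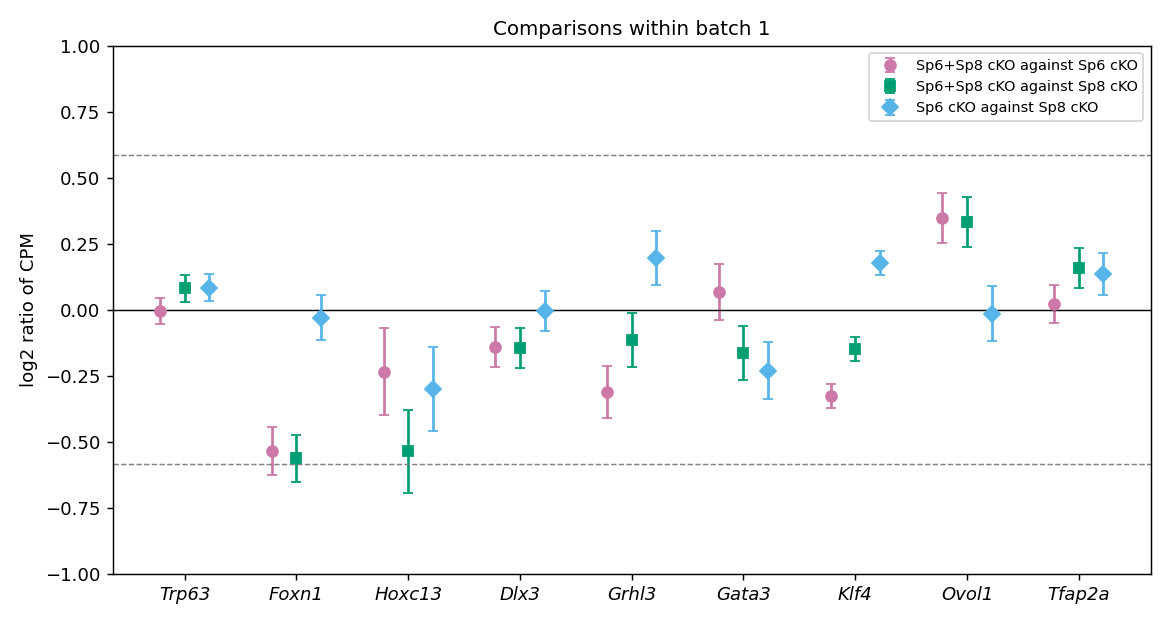
Log2 ratios of each member between the cKO libraries, all of batch 1, with 95% counting intervals. Foxn1 is at -0.53 for Sp6+Sp8 cKO against Sp6 cKO and -0.56 against Sp8 cKO, Ovol1 is at 0.35 and 0.33, and no member passes the 1.5-fold limits.

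Among the cKO libraries of batch 1, no member passed the 1.5-fold rule, while 9.53% of all genes passed it for Sp6+Sp8 cKO against Sp6 cKO, 10.9% for Sp6+Sp8 cKO against Sp8 cKO and 6.02% for Sp6 cKO against Sp8 cKO. Of genes with at least 30 CPM in the higher library, 4%, 5.09% and 1.86% passed it in that order. The members' median log2 ratio was -0.14, -0.15 and -0.0048 in these comparisons, against -0.01, -0.02 and -0.0019 over all 17332 measured genes. Against wildtype the members' median was -0.06 for Sp6 cKO, -0.05 for Sp8 cKO and -0.13 for Sp6+Sp8 cKO, with -0.01, -0.01 and -0.02 over all genes. The median size of a member's log2 ratio to wildtype, without its sign, was 0.08, 0.13 and 0.20 in that order, against 0.10, 0.09 and 0.15 over the 5991 genes with a mean of at least 30 CPM.

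Genes related to the members were described next. Of 33 paralogues, 28 were measured, with median log2 ratios of -0.01 for Sp6 cKO, -0.09 for Sp8 cKO and -0.06 for Sp6+Sp8 cKO against wildtype. The rule was passed downwards by 2, 1 and 1 of them and upwards by 0, where 4.26%, 3.13% and 7.05% of all genes passed downwards and 4.83%, 5.03% and 6.73% upwards. Dlx1 was named among these, at 14.0 CPM in Sp6 cKO, 12.1 in Sp8 cKO, 13.7 in Sp6+Sp8 cKO and 18.5 in wildtype. It lay below wildtype in each cKO library, past the rule in Sp8 cKO with a log2 ratio of -0.60, which was -0.46 and no longer past it under epithelial scaling. The others, named after their values were seen, were Hoxc12 in Sp6 cKO (log2 ratio -0.78) and Ovol2 in Sp6 cKO (-1.04) and in Sp6+Sp8 cKO (-0.78), and neither gene exceeded 4 CPM in a library.

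Of 42 further transcription factors of epidermis and appendages, 1 was higher and 1 lower past the rule in Sp6 cKO, 0 and 2 in Sp8 cKO, and 3 and 2 in Sp6+Sp8 cKO, each against wildtype. Over all genes the shares were 4.83% higher and 4.26% lower for Sp6 cKO, 5.03% and 3.13% for Sp8 cKO, and 6.73% and 7.05% for Sp6+Sp8 cKO. The small counts of the list were not tested against these shares. The median log2 ratio was -0.01, -0.07 and -0.01. The ETS factor Elf5 was at 9.69 CPM in Sp6 cKO, 18.2 in Sp8 cKO, 12.2 in Sp6+Sp8 cKO and 19.6 in wildtype. The related factor Ehf was at 133 CPM in Sp6 cKO, 93.1 in Sp8 cKO, 124 in Sp6+Sp8 cKO and 79.7 in wildtype. Both libraries with Sp6 deleted thus had less Elf5 and more Ehf than Sp8 cKO and wildtype. All 4 ratios to wildtype passed the rule (-1.01 and -0.69 for Elf5, 0.73 and 0.64 for Ehf). Within batch 1 the differences from Sp8 cKO were smaller, given here as ranges over all scalings tried. Ehf was at 0.46 to 0.52 in Sp6 cKO and 0.41 to 0.54 in Sp6+Sp8 cKO, short of the rule. Elf5 was at -0.58 to -0.45 in Sp6+Sp8 cKO, also short of it, and at -0.95 to -0.89 in Sp6 cKO. With libraries scaled to epithelial reference genes, Elf5 in Sp6+Sp8 cKO no longer passed, at -0.42, while Ehf there was at 0.91. Cebpb, which acts in keratinocyte differentiation, was lower in Sp8 cKO at 46.0 CPM, against 78.4 in wildtype. The thyroid and hair follicle factor Foxe1 was higher in Sp6+Sp8 cKO at 7.54 CPM, against 4.74 in wildtype. The rest of the calls, named after their values were seen, were Foxi3 in Sp8 cKO (log2 ratio -0.85) and, in Sp6+Sp8 cKO, Tbx1 (-0.59) and Elf3 (0.87).

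Genes known to act downstream of the members were counted in the same way. Of 18 nail and hair genes linked to Foxn1 and Hoxc13, 17 were analysed here. Their median log2 ratio to wildtype was -0.17 for Sp6 cKO, 0.01 for Sp8 cKO and -0.89 for Sp6+Sp8 cKO. In these comparisons 7, 0 and 11 of 17 were lower past the rule, where 4.26%, 3.13% and 7.05% of all genes were, and none was higher. Within batch 1, Sp6+Sp8 cKO had 12 of the 17 lower than Sp8 cKO, where 6.38% of all genes were. It had 6 lower and 3 higher than Sp6 cKO, where 4.93% of all genes were lower and 4.61% higher.

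The nail and hair genes did not share 1 order of libraries. Krt33b, a hard keratin, was at 949 CPM in Sp6 cKO, 1113 in Sp8 cKO, 440 in Sp6+Sp8 cKO and 1057 in wildtype, lowest in Sp6+Sp8 cKO. Its close copies, such as Krt33a, make the split of reads between them uncertain. The hair cuticle keratin Krt82 was at 7.44 CPM in Sp6 cKO, 38.6 in Sp8 cKO, 18.8 in Sp6+Sp8 cKO and 41.3 in wildtype. Krt32, another cuticle keratin, was at 16.4, 52.6, 33.6 and 58.8 CPM in the same order, and Vsig8, a hair shaft and nail gene, at 25.8, 87.5, 39.2 and 86.7 CPM. These 3 were lowest in Sp6 cKO, as Sp6 was, whereas Hoxc13 was lowest in Sp6+Sp8 cKO. Under epithelial scaling, however, Hoxc13 in Sp6+Sp8 cKO was near its level in Sp6 cKO, at a log2 ratio of -0.06. Of the 17 genes, 7 were lowest in Sp6 cKO, 1 was in Sp8 cKO, 8 were in Sp6+Sp8 cKO and 1 was in wildtype. Krt36 and Krt84, named after their values were seen, stood above wildtype in Sp6+Sp8 cKO, without passing the rule. Krt36 was at 278 CPM in Sp6 cKO, 275 in Sp8 cKO, 352 in Sp6+Sp8 cKO and 270.3 in wildtype, and Krt84 at 413, 397, 503 and 408 CPM in that order. With libraries scaled to epithelial reference genes, Krt32 in Sp6+Sp8 cKO no longer passed the rule, at a log2 ratio of -0.54 to wildtype.

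**Figure D4:**
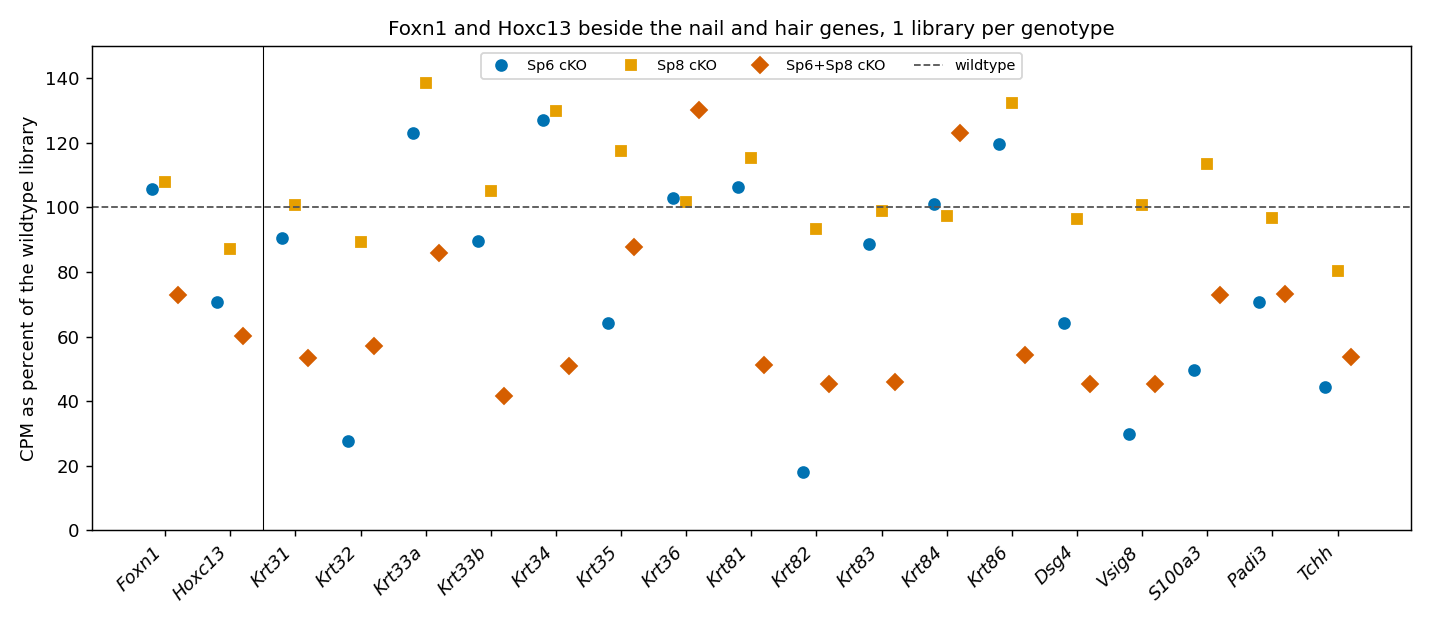
Level in each cKO library as percent of the wildtype library (dashed line) for Foxn1 and Hoxc13, left of the vertical line, and for all 17 nail and hair genes analysed, each point 1 gene in 1 library. In Sp6+Sp8 cKO, Foxn1 is at 73.0% and Hoxc13 at 60.1%, and 15 of the 17 genes lie below wildtype while Krt36 and Krt84 lie above it.

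Basal keratinocyte genes linked to p63 were set beside Trp63. Of 16 such genes, 3 were lower than wildtype past the rule in Sp6 cKO, 2 were in Sp8 cKO, 2 were in Sp6+Sp8 cKO, and none was higher, where 4.26%, 3.13% and 7.05% of all genes were lower. With libraries scaled to epithelial reference genes the counts in either direction were 2, 1 and 1. As first scaled, the genes had medians of -0.25, -0.17 and -0.26. Fras1, an extracellular matrix gene of the epidermal basement membrane and past the rule in all 3 cKO libraries, was at 113 CPM in Sp6 cKO, 110 in Sp8 cKO, 101 in Sp6+Sp8 cKO and 188 in wildtype. Lamb3, which encodes a laminin chain of the basement membrane, was at 52.9, 55.8, 45.9 and 71.6 CPM in that order. Itga3, a laminin-binding integrin subunit, was at 46.8, 45.3, 53.2 and 70.4 CPM. These 3 genes were highest in wildtype, the batch 3 library, and the part of batch was not tested. Among the cKO libraries, 0 of the 16 passed the rule. The basal keratins differed little, with Krt5 at 1900, 1856, 2057 and 1997 CPM and Krt14 at 1679, 1713, 1701 and 1799 CPM in that order.

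Cornification genes linked to Klf4, Grhl3 and Ovol1 were counted next. Of 24 genes, 8 were lower than wildtype past the rule in Sp6+Sp8 cKO and none was higher, against 3 higher and 2 lower in Sp6 cKO and 0 in Sp8 cKO. Of all genes, 7.05% were lower in Sp6+Sp8 cKO, 4.83% higher and 4.26% lower in Sp6 cKO, and 8.16% either in Sp8 cKO. In Sp6 cKO the higher ones were Ivl, Casp14 and Klk5 (log2 ratios 0.60, 0.63 and 0.67) and the lower ones Krt77 (-1.14) and Sprr2a1 (-1.58), named after their values were seen. The 3 higher genes also lay above wildtype when Sp8 alone was deleted, short of the rule. Ivl had 36.2 CPM there, Casp14 295 and Klk5 156, against wildtype levels of 24.2, 228 and 111 CPM. Compared directly with Sp8 cKO, the Sp6 cKO library had 0 of the 24 genes higher past the rule and 2 lower. Of all genes, 2.67% were higher and 3.35% lower in that comparison. Over the 24 genes, median log2 ratios were -0.39 in Sp6+Sp8 cKO, 0.04 in Sp6 cKO and -0.07 in Sp8 cKO. Within batch 1, Sp6+Sp8 cKO had 6 lower and 1 higher than Sp6 cKO, where 4.93% of all genes were lower and 4.61% higher. It had 5 lower than Sp8 cKO, where 6.38% were. Krtdap, a gene of differentiating keratinocytes, was at 587 CPM in Sp6 cKO, 596 in Sp8 cKO, 271 in Sp6+Sp8 cKO and 564 in wildtype. Cdsn, which encodes corneodesmosin, was at 1437, 1371, 734 and 1295 CPM in that order, and Lor, the cornified envelope gene for loricrin, at 310, 332, 204 and 351. The lipoxygenase gene Alox12b was at 223, 184, 140 and 225 CPM. All 4 genes were lowest in Sp6+Sp8 cKO, as were Klf4, Foxn1, Hoxc13 and Dlx3. Of the other factors tied to this list, Grhl3 was at 105 CPM there against 104 in wildtype, and Ovol1 was highest there. With epithelial scaling Klf4 there was at a log2 ratio of -0.02 to wildtype. When scaled to epithelial reference genes, 3 rather than 8 of the 24 passed the rule in that library, counted in either direction. Cdsn, Lor and Alox12b were then short of it, at log2 ratios of -0.55, -0.52 and -0.42, and Krtdap was at -0.79. Of the 17 nail and hair genes 11 passed, also counted in either direction. They are not the same 11 that were lower as first scaled, because Krt32 no longer passed, and how many were lower was not counted.

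**Figure D5:**
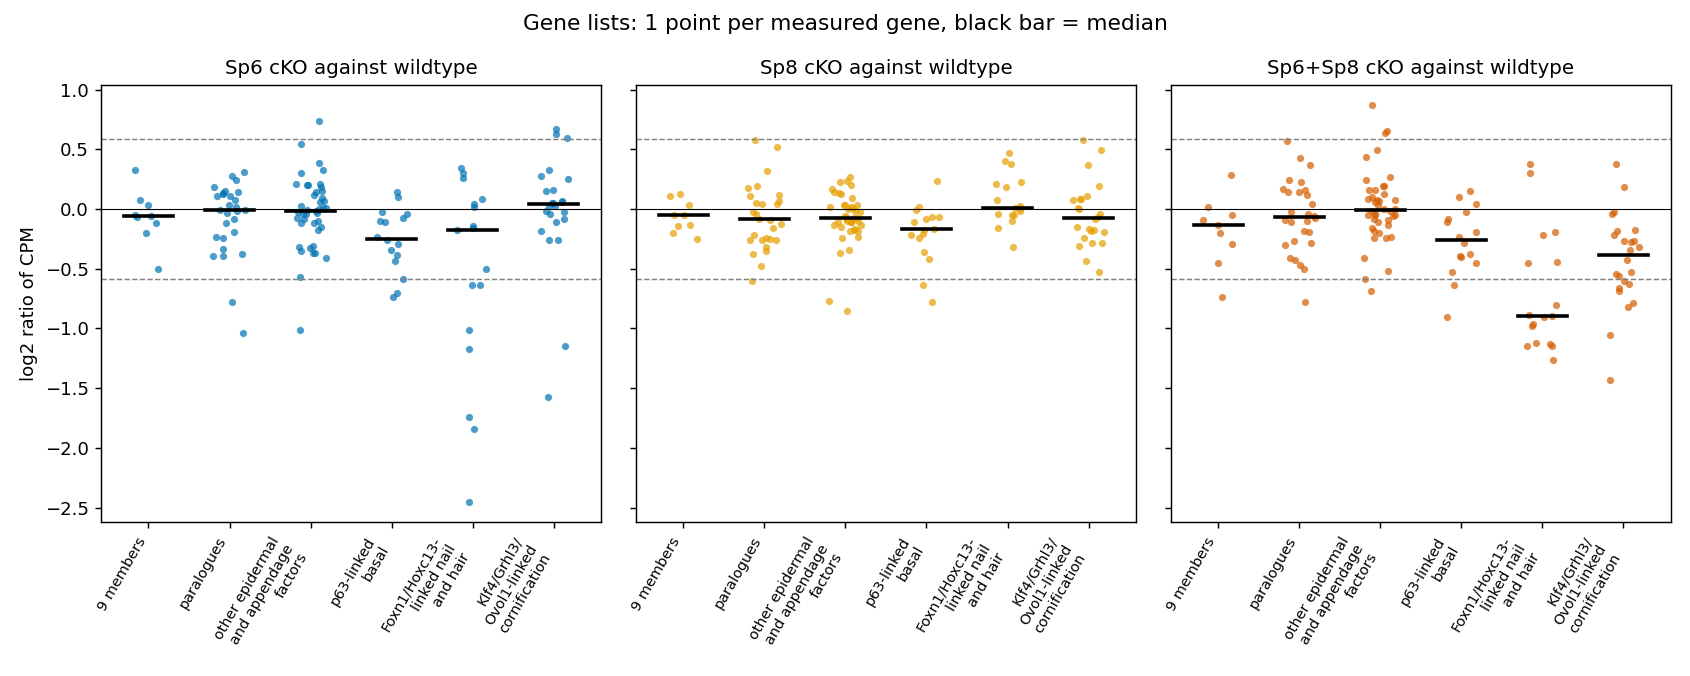
Log2 ratios to wildtype of the members and of the gene lists tied to them in the 3 cKO libraries, each point 1 gene and the line the median. In Sp6+Sp8 cKO the median is -0.13 for the members, -0.89 for the nail and hair genes and -0.39 for the cornification genes.

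Markers of other cell types were examined beside the members. Against wildtype, Sp6+Sp8 cKO had median log2 ratios of -0.27 over 13 measured epithelial reference genes, -0.32 over 10 fibroblast markers, -0.31 over 10 endothelial markers and -0.34 over 10 osteoblast markers. The 1.5-fold rule was passed by 0 epithelial, 0 fibroblast, 2 endothelial (both lower) and 4 osteoblast markers (3 lower and 1 higher). Of all genes, 7.05% were lower and 6.73% higher past it. Fibroblast markers summed to 15846 CPM in Sp6 cKO, 15317 in Sp8 cKO, 12613 in Sp6+Sp8 cKO and 15908 in wildtype, and epithelial reference genes to 10370, 10013, 9155 and 11039 CPM. Col1a1, which is on the osteoblast list as well, gave 6332.5 CPM of the fibroblast sum in Sp6+Sp8 cKO and 7860 in wildtype. The fibroblast and epithelial sums were both lowest in Sp6+Sp8 cKO, where Foxn1, Hoxc13, Klf4 and Dlx3 were lowest too and Ovol1 was highest. Of 16 immediate early genes, which respond to stress and handling among other stimuli, 4 were more than 2-fold higher and 1 was lower past the 1.5-fold rule in Sp6+Sp8 cKO than in wildtype. Of all genes, 2.84% were higher past the 2-fold rule and 7.05% lower past the 1.5-fold rule. Fosb was at 19.2 CPM in Sp6 cKO, 8.73 in Sp8 cKO, 80.3 in Sp6+Sp8 cKO and 10.2 in wildtype, and Atf3 at 3.18, 2.22, 12.3 and 1.52 CPM in that order. Nr4a1 and Fosl1 were the other higher genes and Fos the lower, all 5 named after their values were seen. Macrophage markers summed to 392, 404, 335 and 278 CPM and melanocyte markers to 63, 58.7, 51.3 and 50.9 CPM, lowest in wildtype. The part of cell composition and of handling in the members' values was not tested.

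For each member the most similar pattern over the 4 libraries was sought among 9627 protein-coding genes, as the smallest distance between centred log2 CPM. Foxn1 was closest to Dcn, the fibroblast proteoglycan decorin, at a distance of 0.03, and to Ndufa4l2. Dcn was at 774 CPM in Sp6 cKO, 770 in Sp8 cKO, 520 in Sp6+Sp8 cKO and 722 in wildtype, so the pattern of Foxn1 was shared by a gene of another cell type. Hoxc13 was closest to the potassium channel gene Kcnk1, at 0.06, and to Atg9b. The nearest genes were Brwd3 and Gigyf1 for Trp63, Atp1b3 and P3h2 for Tfap2a, Gskip and Ankrd35 for Klf4, Hdac7 and Fibin for Grhl3, Atl2 and Cirh1a for Ovol1, Pcbp1 and D8Ertd738e for Dlx3, and Mmp14 and Tti2 for Gata3. Among the members themselves, Trp63 and Tfap2a were closest, at 0.09, and Hoxc13 and Ovol1 farthest apart, at 0.78. Hoxc13 was the member nearest to Sp6, at 1.12, and Klf4 the one nearest to Sp8, at 1.88. With 4 libraries many genes share any pattern, and these distances are a description only.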

How the data were processed

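Gene expression was measured by poly-A, strand-specific, paired-end RNA-seq (150 bp, per the labels' protocols). The authors deposited unscaled estimated counts, a Salmon-type unit, for each gene. Tools named in the submitters' processing notes are Salmon, STAR, featureCounts, edgeR, deepTools and Trim Galore 0.6.4, with build GRCm38 and no roles. A column that fits no sample, 1 in all, was left unused. Between 84.6% and 87.1% of each column's values were whole numbers.

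Estimated counts were rounded and scaled by the TMM method (edgeR 4.0.16, R 4.3.3; factors 0.988 to 1.02). Log2 ratios used a prior count of 2. A gene passed the 1.5-fold or 2-fold rule with a ratio at least that large, at least 1 CPM in 1 of the 2 libraries and a 95% interval that excludes 1. The floor of 3 counts was 0.138 to 0.238 CPM. Without molecular identifiers, PCR copies count as separate reads, so intervals may be too narrow. Positions and exon lengths came from GENCODE M21 and promoters from RefSeq. Genes named beside the 9 members were up to 4 per list by the largest log2 ratio to wildtype among those past the 1.5-fold rule with at least 5 CPM, and the 2 most similar patterns per member among genes with a mean of at least 10 CPM. One gene that this rule picks is not reported here. The members and lists were chosen with earlier results of these data known. The ratio and rule were run on simulated data that held counting error only. That checks the code and cannot show how they behave with differences between animals or batches. Alternatives were size factors of DESeq2 1.42.0, totals with and without the 20 most abundant genes, epithelial scaling, another prior count and other CPM minimums.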

Additional observations from a re-analysis of the deposited data

How the results depend on the processing

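Size factors of DESeq2, library totals with and without the 20 most abundant genes, a prior count of 0.5, no CPM minimum, a minimum of 5 CPM and a minimum of 30 CPM, the last chosen after seeing the data, left the 12 counts of members past a rule as they were and moved the 6 medians by at most 0.049 on the log2 scale. Scaling to the summed epithelial reference genes changed some. In that sum Dsp gave 85310 of 140868 counts in Sp6+Sp8 cKO and 145600 of 240011 in wildtype, so the scaling mainly follows this gene. With this scaling the median log2 ratio of all genes to wildtype was 0.08 for Sp6 cKO, 0.13 for Sp8 cKO and 0.25 for Sp6+Sp8 cKO. As first scaled it was -0.01, -0.01 and -0.02, and such a shift follows from how epithelial scaling is built. Under epithelial scaling the members' median was 0.033 for Sp6 cKO, 0.088 for Sp8 cKO and 0.14 for Sp6+Sp8 cKO against wildtype, 0.038 for Sp6+Sp8 cKO against Sp6 cKO and -0.017 against Sp8 cKO, and 0 members passed the 1.5-fold rule in Sp6+Sp8 cKO against wildtype. Foxn1 in Sp6+Sp8 cKO was then at -0.18 against wildtype, -0.35 against Sp6 cKO and -0.43 against Sp8 cKO, so it kept its direction. Over all settings, 40 of the 54 ratios of a member kept 1 sign, and without the epithelial scaling 52 did, the exceptions being Dlx3 in Sp6 cKO against Sp8 cKO and Trp63 in Sp6+Sp8 cKO against Sp6 cKO, both near 0. No paired analysis was possible because each genotype has 1 library. Leaving out a replicate was not possible either, for the same reason. The spread between animals is unknown, so small ratios of deeply counted genes such as Trp63 have narrow counting intervals but no measured biological error.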
